A study of Mus musculus with 59 samples.

Results

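Genes of the circadian clock's repressing arm and output, namely Per1, Per2, Per3, Cry1, Cry2, Bhlhe40, Bhlhe41, Dbp, Tef and Hlf, were taken by symbol from a table of 24346 gene symbols, and all 10 had a row. They were followed through 59 RNA-sequencing libraries from male mice. The tissue was ventral tegmental area (VTA), a part of the midbrain that holds dopamine neurons of the reward system. Mice had received cocaine, a blocker of the dopamine transporter, or saline in 1 of 4 paradigms. The groups were acute home cage injection of cocaine (5 libraries) or of saline (6), chronic home cage injection of cocaine (6) or of saline (6), conditioning with cocaine (6) or with saline (6), and intravenous self-administration of cocaine (15) or of saline (9). The labels give no strain, dose, schedule, hour of collection or batch, and do not say whether a library is 1 animal or a pool. The p-values below therefore measure the spread between these libraries, which may in part be technical.

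In the clock of mammals, CLOCK and BMAL1 (the product of Arntl) bind E-box motifs in DNA and switch on their own repressors. PER and CRY proteins return to the nucleus and inhibit CLOCK and BMAL1, and the products of Bhlhe40 and Bhlhe41 (DEC1 and DEC2) compete for E-boxes. Dbp, Tef and Hlf encode PAR bZIP factors, which carry the rhythm to output genes by activating at D-box motifs. NFIL3 represses at the same motif, and CIART (also called CHRONO) represses CLOCK and BMAL1. Per1 is also known as a gene that glucocorticoids and neuronal activity induce.

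Values are FPKM, fragment counts scaled by transcript length and by library total. The read depth is unknown, so no counting error can be given. Summed FPKM ran from 398577 to 457508 per library, and no libraries held identical values. All 24 self-administration libraries lay apart from the 35 others on the first principal component of the table. A paradigm cannot be told apart from any batch or hour of collection that goes with it. The dopamine neuron markers Th and Slc6a3 were at a median of 283 FPKM (124 to 691) and 270 FPKM (107 to 608) over the 59 libraries and at 0 in none. In bulk tissue, fewer cells that express a gene and less RNA per cell cannot be told apart.

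The DNA just upstream of the members on which the results below turn is given here because the clock is known to act through such motifs. Promoter windows from RefSeq (GRCm38.p6) were used for 8 of the 10 members; those of Per2 and Bhlhe40 were not analysed here. The 250 bases before each RefSeq start were searched on both strands for the E-box (CACGTG), the E′-box (CACGTT, or AACGTG when read on the other strand), the D-box (TTATGTAA) and the cAMP response element (TGACGTCA). Of 32851 RefSeq promoter windows of that length, 6.02% held the E-box, 3.85% the E′-box, 0.819% the D-box and 1.55% the cAMP response element. The stretches below run 5′ to 3′ on the gene's own strand and end at the base before the annotated gene, so some are shorter than the window; capitals mark a motif.
Per3 (chr4:151044666-151044915, minus strand, 2 D-boxes): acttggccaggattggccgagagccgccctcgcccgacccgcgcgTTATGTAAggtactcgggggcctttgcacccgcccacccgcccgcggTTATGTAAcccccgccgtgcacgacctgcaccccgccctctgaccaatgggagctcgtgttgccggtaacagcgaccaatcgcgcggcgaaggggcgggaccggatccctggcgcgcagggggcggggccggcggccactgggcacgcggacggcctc
Cry1 (chr10:85185065-85185304, minus strand, an E′-box and an E-box): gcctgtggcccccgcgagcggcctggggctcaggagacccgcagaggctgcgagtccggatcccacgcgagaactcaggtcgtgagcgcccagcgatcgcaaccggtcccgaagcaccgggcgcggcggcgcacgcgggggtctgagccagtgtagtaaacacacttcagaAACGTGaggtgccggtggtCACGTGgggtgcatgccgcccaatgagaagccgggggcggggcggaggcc
Bhlhe41 (chr6:145865559-145865670, minus strand, an E-box): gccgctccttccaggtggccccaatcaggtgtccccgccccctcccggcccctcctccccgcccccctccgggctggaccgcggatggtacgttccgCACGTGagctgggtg
Dbp (chr7:45704997-45705087, plus strand, none of the motifs): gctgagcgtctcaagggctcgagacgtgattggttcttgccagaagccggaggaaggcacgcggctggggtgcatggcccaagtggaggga

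Per3 alone held the D-box in the exact form searched, TTATGTAA, at 205 and 158 bases before its start. Other forms of the motif were not searched, and a Per1 window holds the letters TTATGCAA. An E-box was found for Bhlhe41, Cry1, Per1 and Tef, an E′-box for Cry1 and Cry2, and the cAMP response element for Hlf. A match in these windows is a string of letters, not a shown binding site, and the absence of a match says nothing on more distant sites. All 10 genes are protein coding in GENCODE M21 (GRCm38). Exons of 5 of them share bases with a gene on the opposite strand: Dbp with Sphk2 (539 bases), Cry2 with D930015M05Rik (295), Bhlhe40 with 0610040F04Rik (118), Bhlhe41 with Gm43909 (1280) and Tef with Gm17597 (193). Whether the counting used strand is not given in the sources used here, so reads from those bases cannot be told apart.

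All 10 members passed the filter of a mean of at least 1 FPKM. Because FPKM is per transcript length, levels can be set between genes. Tef had the highest mean over the 59 libraries, 73.4 FPKM, above 91.2% of the genes that passed the filter. Dbp followed at 29.5, Cry2 at 26.7, Bhlhe40 at 20.8, Hlf at 17.4, Per1 at 12.8, Bhlhe41 at 10.6, Cry1 at 9.15, Per3 at 6.12 and Per2 at 4.81 FPKM. The groups spread these genes unequally. The highest group mean was 3.82 times the lowest for Dbp, 2.13 times for Cry1 and 1.98 times for Per2, and between 1.30 and 1.48 times for the other 7.

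Dbp, the output factor with the widest range, stood at 3 separate levels by paradigm. Its FPKM ran from 38.7 to 49.9 (median 47.0) in chronic cocaine libraries and from 40.9 to 77.4 (median 48.0) in chronic saline libraries. In the acute paradigm the 5 cocaine libraries had 47.1, 49.0, 37.3, 47.2 and 39.9 FPKM, and the saline libraries ran from 41.0 to 49.1 (median 43.8). Acute and chronic libraries overlapped almost wholly. In conditioning it ran from 24.1 to 27.7 (median 24.4) with cocaine and from 22.2 to 31.1 (median 29.0) with saline, below every acute and chronic library of the same drug. In self-administration it ran from 6.23 to 19.7 (median 12.9) with cocaine and from 9.87 to 23.5 (median 14.7) with saline, below every acute and chronic library. Self-administration and conditioning did not overlap with cocaine and did with saline.

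**Figure D1:**
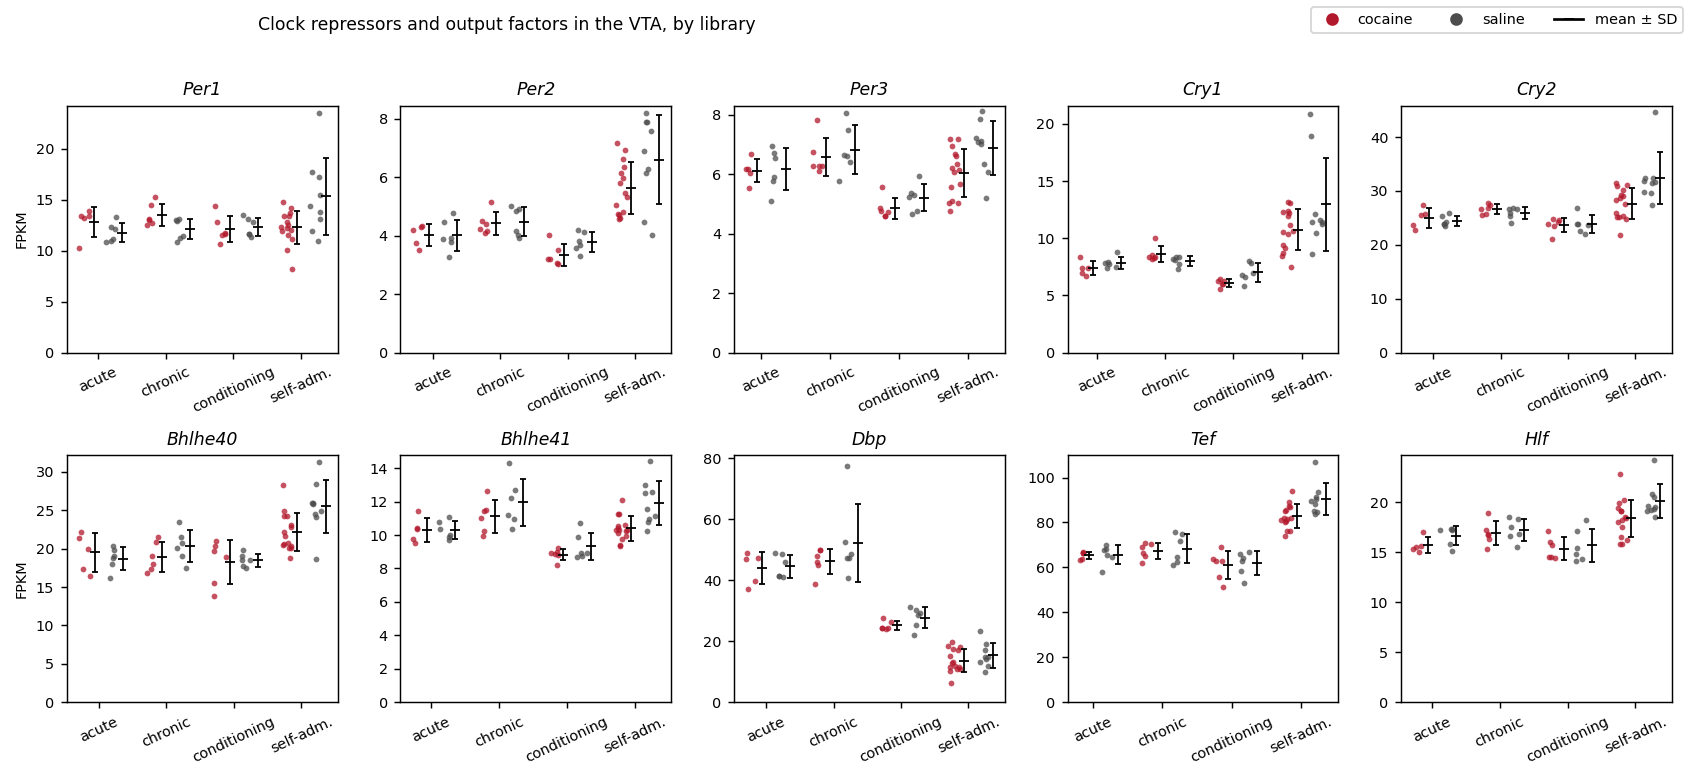
FPKM of the 10 genes in each of the 59 libraries, by paradigm, with cocaine (red) left of saline (grey) and mean ± SD in black; each panel has its own linear axis from 0. Dbp stands at 3 levels, with means between 44.1 and 52.4 in the acute and chronic groups, 25.2 and 27.8 in conditioning and 13.7 and 15.4 in self-administration, while Tef, Cry1 and Per2 are highest in self-administration.

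The other 9 genes followed another order, in most of them with self-administration saline at the top and conditioning cocaine at the bottom. Tef, a PAR bZIP factor like Dbp, averaged 82.8 ± 5.38 FPKM in self-administration cocaine libraries (SD, n = 15) and 90.5 ± 7.03 in saline ones (n = 9). It averaged 60.9 ± 6.25 in conditioning cocaine and 62.0 ± 5.25 in conditioning saline libraries, 67.3 ± 3.43 and 68.4 ± 6.55 in chronic cocaine and saline, and 65.3 ± 1.67 and 65.7 ± 4.22 in acute cocaine and saline. The ranges of the 3 injected paradigms overlapped. Cry1, which encodes the more potent repressor of the CRY pair, averaged 10.7 ± 1.79 and 13.0 ± 4.08 FPKM in self-administration cocaine and saline libraries. It averaged 6.07 ± 0.315 and 7.01 ± 0.804 in conditioning cocaine and saline, 8.62 ± 0.686 and 8.01 ± 0.419 in chronic, and 7.38 ± 0.643 and 7.86 ± 0.521 in acute. Per2 averaged 5.62 ± 0.887 and 6.60 ± 1.52 FPKM in self-administration cocaine and saline, 3.33 ± 0.374 and 3.78 ± 0.339 in conditioning, 4.42 ± 0.387 and 4.47 ± 0.497 in chronic, and 4.02 ± 0.367 and 4.01 ± 0.529 in acute. For these 3 genes no difference between the chronic and acute groups was called, and conditioning lay lowest.

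Per3 and Bhlhe41 were the 2 members for which self-administration and chronic injection were not called different with either drug. Per3 averaged 6.04 ± 0.811 FPKM in self-administration cocaine and 6.89 ± 0.902 in self-administration saline libraries, 4.85 ± 0.364 and 5.21 ± 0.463 in conditioning, 6.59 ± 0.637 and 6.83 ± 0.817 in chronic, and 6.13 ± 0.399 and 6.17 ± 0.701 in acute. Bhlhe41 averaged 10.4 ± 0.723 and 11.9 ± 1.32 FPKM in self-administration, 8.84 ± 0.330 and 9.32 ± 0.816 in conditioning, 11.1 ± 0.983 and 12.0 ± 1.43 in chronic, and 10.3 ± 0.733 and 10.3 ± 0.531 in acute, cocaine before saline in each. In both genes conditioning was the low paradigm. Cry2 and Bhlhe40 had their highest group mean in self-administration saline, 32.4 ± 4.89 and 25.5 ± 3.42 FPKM, and their lowest in conditioning cocaine, 23.7 ± 1.37 and 18.2 ± 2.87. Hlf ranged between 20.1 ± 1.68 in self-administration saline and 15.4 ± 1.12 in conditioning cocaine. Per1 was the flattest across paradigms: 7 of its 8 group means lay between 11.8 and 13.5 FPKM, and the eighth, self-administration saline, was 15.3 ± 3.79.

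Differences were tested with limma on log2(FPKM + 1), a scale that understates changes of low genes. Adjustment of p followed Benjamini-Hochberg, over all 13186 genes of the fit. Among the saline libraries, the moderated F test over the 4 paradigms called all 10 members, where 48.3% of all genes were called. Among the cocaine libraries it called 9, all but Per1 (adjusted p = 0.486), where 53.9% were called. The comparison among injected paradigms does not contrast the self-administration libraries that stand apart, though they stayed in the fit and entered its error. In that fit it called few genes, and it is described next.

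Conditioning was set against chronic injection, 6 libraries in each group, once with cocaine and once with saline. Dbp fell in conditioning in both, by 0.85 ± 0.16 (SE) on the log2 scale with cocaine (adjusted p = 0.0111) and by 0.87 ± 0.16 with saline (adjusted p = 0.00596). The repressor Bhlhe41 fell by 0.30 ± 0.06 with cocaine (adjusted p = 0.0234) and by 0.32 ± 0.06 with saline (adjusted p = 0.0104). Per3 fell by 0.37 ± 0.08 with cocaine (adjusted p = 0.0279); with saline its difference of -0.33 ± 0.08 missed the threshold (adjusted p = 0.108). Thus 3 of 10 members were called with cocaine, where 0.159% of all genes (21 of 13186) were called, and 2 of 10 with saline, where 0.0834% (11 of 13186) were called. At an unadjusted p under 0.05 there were 7 with cocaine, where 7.64% of all genes were past that limit, and 5 with saline, where 5.09% were. These counts describe a set chosen with earlier results known, and members that vary together across libraries are not separate pieces of evidence. The cocaine and saline contrasts share no library, but they share the error of the fit over all 8 groups. The labels give neither hour of collection nor batch, and either could differ between conditioning and chronic injection in both drug groups. Paradigm, hour and batch cannot be told apart here.

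The remaining repressors were not called, and all but Per1 with saline had a negative difference. With cocaine, Cry1 differed by -0.44 ± 0.12 (adjusted p = 0.135), Per2 by -0.32 ± 0.10 (adjusted p = 0.351), Cry2 by -0.17 ± 0.07 (adjusted p = 0.505) and Per1 by -0.15 ± 0.10 (adjusted p = 0.797). With saline, Per2 differed by -0.19 ± 0.10, Cry1 by -0.18 ± 0.12, Cry2 by -0.12 ± 0.07 and Per1 by 0.03 ± 0.10, each at an adjusted p of 1. Tef differed by -0.15 ± 0.06 with cocaine and -0.14 ± 0.06 with saline, and Hlf by -0.13 ± 0.06 in each. Bhlhe40 differed by -0.06 ± 0.09 with cocaine and -0.13 ± 0.09 with saline, with 95% intervals of -0.24 to 0.12 and -0.31 to 0.05. In the cocaine libraries 6 members (Per2, Per3, Cry1, Cry2, Bhlhe41 and Dbp) did not overlap between the paradigms, each lower in conditioning, where 0.417% of all genes were lower without overlap. In the saline libraries only Dbp did so, where 0.523% of genes did.

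All differences above came from a fit over all 8 groups, so the wide spread of Dbp in self-administration entered its error. Fitted on the 6 injected groups alone, a choice made after seeing the data, the cocaine contrast called 6 members, adding Cry1 (adjusted p = 3.69e-05), Per2 (0.0112) and Cry2 (0.0481), and the saline contrast also called Per3 (0.00836). Calls rose over the whole table in that fit, to 207 of 13173 genes with cocaine and 88 with saline. The fit over all 8 groups had called 21 and 11 of 13186. When single libraries were left out, Dbp stayed called in all 12 cases of each contrast, and Bhlhe41 lost its call in 2 of 12 saline and 6 of 12 cocaine cases. Per3 lost its cocaine call in 9 of 12. Without chronic saline library 1, the high library of that group at 77.4 FPKM, the saline difference of Dbp was -0.75 (adjusted p = 0.0447) and that of Bhlhe41 -0.27 (adjusted p = 0.0798).

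**Figure D2:**
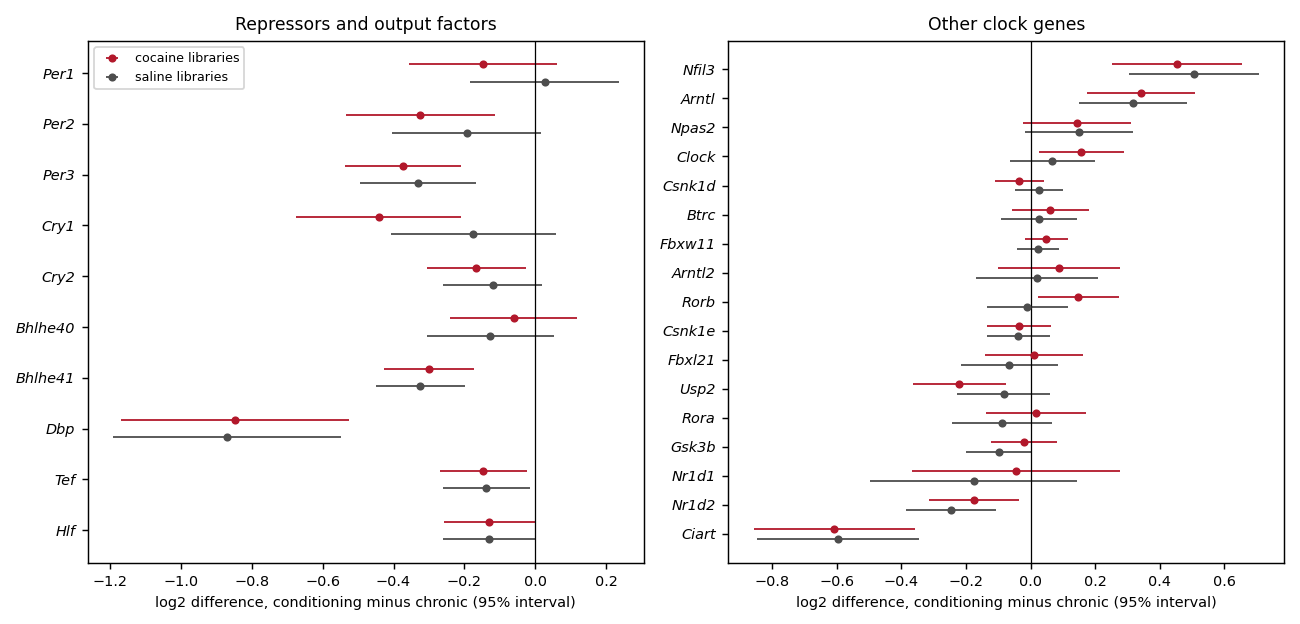
Log2 difference of conditioning minus chronic injection with its 95% interval, for the 10 genes (left) and 17 other clock genes (right), in cocaine libraries (red, above) and saline libraries (grey, below). Dbp lies at -0.85 and -0.87 and Ciart at -0.61 and -0.60, while Nfil3 (0.45 and 0.51) and Arntl (0.34 and 0.32) lie on the other side of 0.

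Of 20 other clock genes, 19 passed the filter. In this contrast 2 were called in each drug group, where 0.159% of all genes were called with cocaine and 0.0834% with saline. Ciart, the repressor CHRONO, fell by 0.61 ± 0.12 with cocaine (adjusted p = 0.0210) and by 0.60 ± 0.12 with saline (adjusted p = 0.0164). Nfil3, the D-box repressor, rose by 0.45 ± 0.10 with cocaine (adjusted p = 0.0292) and by 0.51 ± 0.10 with saline (adjusted p = 0.0110). Ciart had a median of 6.27 FPKM in conditioning cocaine and 10.4 in chronic cocaine libraries, and of 5.82 in conditioning saline and 9.21 in chronic saline libraries. Nfil3 had a median of 6.66 FPKM in conditioning cocaine and 4.51 in chronic cocaine libraries, and of 6.85 in conditioning saline and 4.31 in chronic saline libraries. Over the 19 genes the median difference was 0.01 with cocaine and -0.03 with saline, against -0.23 and -0.16 over the 10 members and medians near 0 over all genes. The median of the 19 joins genes that moved in opposite directions. At an unadjusted p under 0.05, 4 were higher and 4 lower with cocaine, where 7.64% of all genes were past that limit. With saline 2 were higher and 2 lower, where 5.09% of all genes were past it.

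Other genes moved between these groups too. Of 16 glucocorticoid-induced genes, 3 rose in conditioning with saline (Sgk1 by 0.84 ± 0.13, Nfkbia by 0.50 ± 0.09 and Ddit4 by 0.66 ± 0.13) and 0 with cocaine, where the smallest adjusted p was that of Plin4 (-0.78 ± 0.25, adjusted p = 0.345). Of 15 tested activity-induced genes, Fosl2 (0.84 ± 0.15) and Fos (1.04 ± 0.21) rose with saline and 0 passed with cocaine. Summed over 6 oligodendrocyte markers, the level was 7271 to 9295 FPKM in conditioning cocaine and 6040 to 7918 in chronic cocaine libraries, and 6698 to 8917 in conditioning saline and 6354 to 7296 in chronic saline libraries. Of these 6, 3 were higher at an unadjusted p under 0.05 with cocaine and 1 with saline. The 6 endothelial and pericyte markers summed to 81.7 to 96.5 FPKM in conditioning cocaine and 60.5 to 80.3 in chronic cocaine libraries, and to 68.7 to 98.7 in conditioning saline and 76.6 to 89.6 in chronic saline libraries. Of them 4 were higher past that limit with cocaine and 0 with saline. The 8 dopamine neuron markers summed to 539 to 1959 FPKM (median 878) in conditioning cocaine and 601 to 2181 (median 1400) in chronic cocaine libraries. They summed to 584 to 1989 (median 965) in conditioning saline and 496 to 2059 (median 1155) in chronic saline libraries. Their median difference was -0.44 with cocaine and -0.15 with saline, and 0 were past that limit. None of these cell type markers passed adjustment, and their part in the clock gene differences was not tested.

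Conditioning against acute injection gave the same sign for Dbp, -0.78 ± 0.17 with cocaine (adjusted p = 0.232) and -0.67 ± 0.16 with saline (adjusted p = 0.476). No member was called, where 0% of genes were called with cocaine and 0.00758% with saline. Cry1, Bhlhe41 and Dbp were lower without overlap with cocaine, as 0.592% of all genes were, and Dbp alone with saline, as 0.22% were. At an unadjusted p under 0.05 there were 3 members in each, Per3, Bhlhe41 and Dbp, against 7.24% and 2.44% of all genes. In the fit of the 6 injected groups Dbp was called with both drugs, at an adjusted p of 0.000202 with cocaine and 0.00161 with saline. For this contrast that fit called 10 of 13173 genes with each drug. Chronic against acute injection called 0 members and 0 genes with either drug. At an unadjusted p under 0.05 it gave 0 members with cocaine (4.85% of all genes), and with saline Bhlhe41 alone, 0.19 ± 0.06 higher in chronic (1.88% of all genes). By sign, all 10 members were higher in chronic with saline (median 0.10), where 52.8% of all genes were lower. With cocaine 9 were higher (median 0.09), where 48.8% of all genes were lower.

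Self-administration was set against each injected paradigm. Dbp fell in all 6 contrasts: with cocaine by 1.66 ± 0.14 against acute, 1.73 ± 0.13 against chronic and 0.88 ± 0.13 against conditioning, and with saline by 1.51 ± 0.15, 1.71 ± 0.15 and 0.84 ± 0.15 in the same order. With cocaine, Dbp was lower without overlap in all 3 contrasts, where 4.81%, 4.94% and 4% of all genes were; with saline, it was so against acute and chronic, where 8.29% and 7.11% were, and not against conditioning, where 8.21% were. On the FPKM + 1 scale the contrasts with chronic injection correspond to 0.301 and 0.305 of the chronic level. Its partner factors of the same family went the other way. Tef rose by 0.34 ± 0.05, 0.29 ± 0.05 and 0.44 ± 0.05 with cocaine and by 0.45 ± 0.06, 0.40 ± 0.06 and 0.54 ± 0.06 with saline, and its self-administration and injected libraries did not overlap in any of the 6 contrasts. Higher without overlap were 4.54%, 3.91% and 3.3% of all genes with cocaine and 6.54%, 5.9% and 6.76% with saline. Hlf rose by 0.21 ± 0.06 and 0.24 ± 0.05 against acute and conditioning with cocaine, and its 0.11 ± 0.05 against chronic was not called (adjusted p = 0.0831); with saline it rose by 0.25 ± 0.06, 0.21 ± 0.06 and 0.34 ± 0.06.

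Among the repressors, Cry1 and Per2 rose in all 6 contrasts. Cry1 rose by 0.47 ± 0.10, 0.27 ± 0.10 and 0.71 ± 0.10 with cocaine and by 0.61 ± 0.11, 0.59 ± 0.11 and 0.76 ± 0.11 with saline, against acute, chronic and conditioning. Per2 rose by 0.39 ± 0.09, 0.28 ± 0.09 and 0.60 ± 0.09 with cocaine and by 0.58 ± 0.10, 0.45 ± 0.10 and 0.64 ± 0.10 with saline. Per1 rose in the 3 saline contrasts (0.33 ± 0.10, 0.29 ± 0.10 and 0.26 ± 0.10); with cocaine it differed by -0.06 ± 0.09, -0.14 ± 0.09 and 0.01 ± 0.09, none called. Bhlhe40 rose by 0.22 ± 0.07 and 0.28 ± 0.07 against chronic and conditioning with cocaine, and by 0.42 ± 0.08, 0.31 ± 0.08 and 0.43 ± 0.08 in the saline contrasts. Cry2 rose by 0.21 ± 0.06 against conditioning with cocaine, and by 0.38 ± 0.06, 0.30 ± 0.06 and 0.42 ± 0.06 in the saline contrasts. Per3 rose against conditioning with both drugs, by 0.26 ± 0.07 with cocaine and 0.34 ± 0.07 with saline. Bhlhe41 also rose against conditioning, by 0.21 ± 0.05 with cocaine and 0.32 ± 0.06 with saline, and by 0.19 ± 0.06 against acute saline. In all, 5, 5 and 9 members were called with cocaine, where 44.4%, 48.2% and 48.6% of all genes were called, and 9, 8 and 10 with saline, where 45.7%, 46.8% and 49.3% were called. The 3 contrasts of a drug share the self-administration libraries.

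Among the 19 other clock genes, self-administration against chronic injection gave 11 higher and 3 lower with cocaine and 10 higher and 2 lower with saline. With cocaine the first by p were Fbxw11 (0.23 ± 0.03), Npas2 (0.35 ± 0.07), Clock (0.25 ± 0.05), Ciart (-0.47 ± 0.10), Rorb (0.23 ± 0.05) and Nr1d1 (-0.55 ± 0.13). With saline those called included Fbxw11 (0.21 ± 0.03), Nr1d1 (-0.66 ± 0.15), Csnk1d (0.15 ± 0.03) and Rora (0.29 ± 0.07). Nr1d1, which encodes the clock repressor REV-ERBα, thus fell beside Dbp with both drugs. The 6 oligodendrocyte markers summed to 3278 to 6818 FPKM (median 5232) in self-administration cocaine and 3627 to 8006 (median 4689) in self-administration saline libraries, against group medians of 6920 to 8173 in the injected groups, and 5 of 6 fell in each of the 6 contrasts.

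Other markers and lists also moved between self-administration and chronic injection. The 7 hypothalamus and mammillary body markers summed to 9.62 to 85.2 FPKM in self-administration cocaine and 7.97 to 24.5 in chronic cocaine libraries, and to 16.3 to 232 in self-administration saline and 6.05 to 22.9 in chronic saline libraries. Of 5 tested, 1 rose with cocaine and 4 with saline. The 3 pituitary markers summed to 0.674 to 372 FPKM (median 1.64) in self-administration cocaine and 2.31 to 3.87 (median 2.69) in chronic cocaine libraries. With saline they summed to 0.436 to 910 (median 1.25) in self-administration and 1.78 to 7.67 (median 2.74) in chronic libraries. Of 6 microglia markers 4 fell with cocaine and 0 were called with saline, and of 8 dopamine neuron markers 2 fell with each drug. Of 3 red blood cell markers, 2 rose and 1 fell with cocaine, and 1 rose with saline. Of 5 astrocyte markers 2 rose and 1 fell with each drug, and of 3 GABA neuron markers 1 fell with each. Of 2 oligodendrocyte precursor markers 1 rose with cocaine, and 1 rose and 1 fell with saline. Of 2 glutamate neuron markers 1 rose with cocaine, and of 6 endothelial and pericyte markers 2 fell with saline. Of the 16 glucocorticoid-induced genes, 11 rose with cocaine and 14 with saline, with median differences of 0.46 and 0.64. First among them were Plin4 (2.48 ± 0.21 with cocaine, 3.26 ± 0.23 with saline), Fkbp5 (1.17 ± 0.11 and 1.52 ± 0.12) and Sult1a1 (1.98 ± 0.20 and 2.36 ± 0.22). Activity-induced genes went both ways. With saline, the self-administration and chronic means were 2.14 and 10.7 FPKM for Junb, 6.72 and 17.2 for Jun, and 4.03 and 1.43 for Fosl2. With cocaine they were 3.10 and 13.2 for Junb, 7.97 and 17.2 for Jun, and 4.66 and 1.97 for Fosl2. The part of these cell types and genes in the clock gene differences was not tested.

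The effect of cocaine within self-administration, 15 cocaine against 9 saline libraries, called 0 members and 0 of 13130 genes after adjustment; the adjusted p of every member was 0.999. All 10 members were nevertheless lower with cocaine, where 50.6% of all genes were lower. At an unadjusted p under 0.05 there were 7 of 10, where 3.43% of all genes (450) were past that limit in either direction and 1.81% were lower. The members' median difference was -0.18, and the median of all genes was -0.0011. This is a description of a set chosen with earlier results known, and members that vary together across libraries are not separate pieces of evidence.

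Per1 had a lowest, median and highest value of 8.24, 12.3 and 14.8 FPKM in the 15 cocaine libraries and 10.9, 14.4 and 23.5 in the 9 saline libraries. Of the cocaine libraries 14 lay below the saline median, though the groups overlapped. Its difference was -0.28 ± 0.10 (unadjusted p = 0.00872), that of Per3 -0.17 ± 0.07 (unadjusted p = 0.0265) and that of Per2 -0.18 ± 0.10 (unadjusted p = 0.0763). Cry2 had 21.7, 28.3 and 31.4 FPKM with cocaine and 27.3, 31.7 and 44.6 with saline. All 15 cocaine libraries lay below the saline median, and the difference was -0.22 ± 0.07 (unadjusted p = 0.00358). Cry1 differed by -0.22 ± 0.12 (unadjusted p = 0.0686), with 9 of 15 below the saline median.

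The E-box repressors and the output factors were lower as well. Bhlhe41 had the smallest p of the 10, rank 6 among 13130 genes, with a difference of -0.18 ± 0.05 (unadjusted p = 0.00158). Its cocaine libraries ran from 9.36 to 12.1 FPKM (median 10.3) and its saline libraries from 10.3 to 14.5 (median 11.6), and 14 of 15 cocaine libraries lay below the saline median. Bhlhe40 differed by -0.19 ± 0.07 (unadjusted p = 0.0101), Tef by -0.13 ± 0.04 (unadjusted p = 0.0087) and Hlf by -0.12 ± 0.05 (unadjusted p = 0.0310). Dbp, the gene that differed most between paradigms, differed by -0.17 ± 0.15 here (unadjusted p = 0.273), with a 95% interval of -0.48 to 0.14 and 9 of 15 libraries below the saline median.

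Of the 19 other clock genes, 11 were lower with cocaine in self-administration, with a median of -0.02, and 1, Ciart (-0.28 ± 0.12, unadjusted p = 0.0258), was past the unadjusted limit.

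The count of 7 ranged from 5 to 9 when single libraries were left out, and all 10 signs stayed negative each time. Self-administration saline library 1 was the highest of its group in 5 members, among them Per1 (23.5 FPKM), Cry2 (44.6) and Tef (107). Without it the count was again 7, with Per1 at -0.20, Cry2 at -0.16 and Tef at -0.09. Cry1, which was not among the 7, moved most, to -0.13 (unadjusted p = 0.212). The difference of Dbp ranged from -0.24 to -0.09 over the omissions. Markers of hypothalamus and mammillary body, next to the VTA, summed over 7 genes, were at 9.62 to 85.2 FPKM (median 16.1) in self-administration cocaine libraries and 16.3 to 232 (median 39.3) in saline libraries. Of 5 tested, 2 were lower with cocaine at an unadjusted p under 0.05 and 0 after adjustment. Their part in the clock gene differences was not tested.

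**Figure D3:**
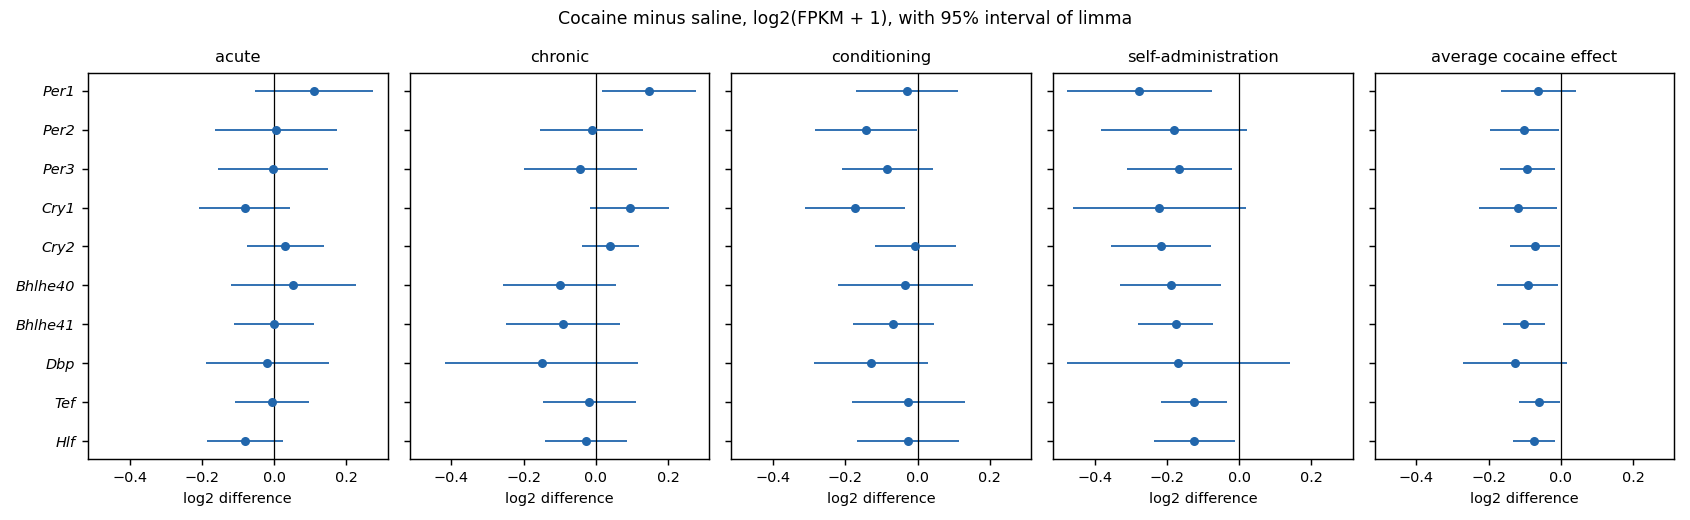
Log2 difference of cocaine minus saline with its 95% interval for each of the 10 genes, in each paradigm and for the average over the 4 paradigms. In self-administration all 10 points lie left of 0, between -0.28 for Per1 and -0.12 for Hlf, and in the acute paradigm 5 lie on each side.

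Cocaine and saline were compared in the same way in the injected paradigms. In the acute paradigm 5 of 10 were lower with cocaine (50.6% of all genes), their median difference was -0.0018 and 0 had an unadjusted p under 0.05, where 3.91% of genes did. The differences ran from -0.08 (Cry1 and Hlf) to 0.11 (Per1), with 95% intervals of -0.21 to 0.05 for Cry1, -0.19 to 0.02 for Hlf and -0.05 to 0.27 for Per1. The Per1 value depended on acute cocaine library 2, the low one at 10.3 FPKM: without it the difference was 0.18 (unadjusted p = 0.00773), and that of Cry1 was -0.12 (unadjusted p = 0.0435). The number of lower members ranged from 2 to 7 when single libraries were left out. The 8 dopamine neuron markers had summed medians of 681 FPKM in acute cocaine and 1254 in acute saline libraries. Their median difference was -0.48, with 0 past an unadjusted p of 0.05, and their part was not tested. In the chronic paradigm 7 members were lower (48.7% of all genes), a number that ranged from 4 to 7 over the omissions and was 4 under library weights. Past that limit was 1 member, where 7.38% of genes were and 4.15% were higher. That gene was Per1, higher with cocaine by 0.15 ± 0.06 (unadjusted p = 0.0304, adjusted p = 0.648). Its chronic cocaine libraries ran from 12.5 to 15.2 FPKM (median 13.0) and the saline ones from 10.9 to 13.1 (median 12.2), so all 6 cocaine libraries lay above the saline median.

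Per1 was set beside a list of 16 glucocorticoid-induced genes in the chronic paradigm. All 16 had a positive difference with cocaine, with a median of 0.34 against 0.0024 over all genes, and 12 were past an unadjusted p of 0.05, though 0 after adjustment. First among them were Arrdc2 (0.50 ± 0.07, adjusted p = 0.106), the kinase gene Sgk1 (0.68 ± 0.12, adjusted p = 0.216) and Ddit4 (0.37 ± 0.07, adjusted p = 0.216). Of 18 tested other clock genes 3 were past the unadjusted limit, Nr1d1 (-0.22 ± 0.07), Usp2 (0.20 ± 0.07) and Ciart (0.16 ± 0.07). Of 14 tested activity-induced genes 6 were higher past the unadjusted limit, first Dusp1 (0.25 ± 0.07) and Nr4a1 (0.51 ± 0.15), and 0 after adjustment. Markers of other cell types also differed in the chronic paradigm. The 6 endothelial and pericyte markers summed to 60.5 to 80.3 FPKM with cocaine and 76.6 to 89.6 with saline, and 4 were lower past the unadjusted limit. The 5 astrocyte markers summed to 192 to 298 FPKM with cocaine and 239 to 352 with saline, and 2 were lower past it. None passed adjustment, and their part in the differences of this paradigm was not tested.

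In self-administration, where Per1 had a negative difference, 12 of the 16 glucocorticoid-induced genes were negative, as 50.6% of all genes were. Their median was -0.06, and 1, Zbtb16 (-0.32 ± 0.13), was past the unadjusted limit. Of 15 tested activity-induced genes, 12 were positive there, with Fos at 0.32 ± 0.14 and Fosb at 0.26 ± 0.12 past the unadjusted limit. In conditioning Per1 was also lower with cocaine, while 9 of the 16 glucocorticoid-induced genes were positive and 7 negative (median 0.03). In the acute paradigm Per1 was higher, and of 14 tested 10 were positive and 4 negative (median 0.05). The part of either list in the Per1 differences was not tested.

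In conditioning all 10 members were lower with cocaine (50.1% of all genes), with a median of -0.05 against -0.0002 over all genes. Past an unadjusted p of 0.05 were 2, where 8.21% of genes were and 4.28% were lower: Cry1 at -0.17 ± 0.06 (unadjusted p = 0.0176, adjusted p = 0.591) and Per2 at -0.14 ± 0.07 (unadjusted p = 0.0484, adjusted p = 0.604). Cry1 had 5.55 to 6.45 FPKM (median 6.11) with cocaine and 5.86 to 8.01 (median 6.88) with saline. All 6 cocaine libraries lay below the saline median, and the groups overlapped. Of the 10 signs, 8 to 10 stayed negative when single libraries were left out, and 8 were under library weights. Astrocyte and microglia markers differed in the same direction. The 5 astrocyte markers summed to 232 to 275 FPKM with cocaine and 263 to 328 with saline, with a median difference of -0.14, and 3 were lower past the unadjusted limit. The 6 microglia markers summed to 74.5 to 82.9 FPKM with cocaine and 74.9 to 119 with saline, with a median difference of -0.17, and 3 were lower past it. Other cell types went both ways. The median difference was 0.11 over 6 oligodendrocyte markers, 1 of them higher past that limit, 0.08 over 6 endothelial and pericyte markers and 0.06 over 3 GABA neuron markers. It was -0.14 over 8 dopamine neuron markers, 1 of them lower past that limit, and -0.03 over 2 oligodendrocyte precursor markers. None passed adjustment, and their part in the clock gene differences was not tested.

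Averaged over the 4 paradigms, all 10 members were lower with cocaine (50.4% of all genes), with a median of -0.09 against -0.0005. No member passed adjustment, where 0.00758% of genes (1 of 13186) did. Past an unadjusted p of 0.05 were 8 of 10, all but Per1 and Dbp, where 12.8% of genes (1689) were and 6.34% were lower. Bhlhe41 again came first (-0.10 ± 0.03, unadjusted p = 0.00100, adjusted p = 0.247), followed by Hlf (-0.07 ± 0.03, adjusted p = 0.281) and Per3 (-0.09 ± 0.04, adjusted p = 0.294). The count rested on self-administration: without that paradigm it was 0 of 10, while 1717 genes were past the limit, and 8 of 10 signs were negative. Left out singly, self-administration saline library 1 or library 7 took it to 4, and self-administration cocaine library 1 to 5. Under library weights 9 of 10 signs were negative. Of the 19 other clock genes 0 were past the unadjusted limit in this average, with a median of -0.02. Past that limit and lower were 3 of 5 tested hypothalamus and mammillary body markers (median difference -0.24) and 2 of 5 astrocyte markers (median difference -0.14), 0 of them after adjustment. Their part in the average was not tested.

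Whether the cocaine effect differed between paradigms was tested in 6 contrasts, and 0 members and 0 genes passed adjustment. Set against chronic injection, the effect in self-administration differed for Per1 by -0.42 ± 0.13 (unadjusted p = 0.00181), for Cry2 by -0.26 ± 0.09 (unadjusted p = 0.00442) and for Cry1 by -0.31 ± 0.14 (unadjusted p = 0.0330), which makes 3 members where 2.21% of genes were past that limit. Set against the acute paradigm, 4 members were past it (1.73% of genes), Per1 at -0.39 ± 0.13, Cry2 at -0.25 ± 0.09, Bhlhe41 at -0.18 ± 0.08 and Bhlhe40 at -0.24 ± 0.11. Set against conditioning, only Cry2 was (-0.21 ± 0.09, unadjusted p = 0.0181), where 3% of genes were. These 3 contrasts share the self-administration libraries. Adjusted p was 1 to 2 decimals for each, so a difference of the cocaine effect between paradigms was not shown for any member. In the other 3 contrasts, among injected paradigms, 0 members were past the unadjusted limit, where 1.11% (chronic minus acute), 1.41% (conditioning minus acute) and 2.18% (conditioning minus chronic) of genes were.

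How the members varied together within groups was described by the correlation of their deviations from the 8 group means over the 59 libraries, without a test, since all values of a library share its dissection and processing. Of 13185 other genes, Per3 had rank 2 in likeness to Dbp (Pearson r = 0.64, Spearman rho = 0.58), after Pipox (r = 0.65) and before Jph4 (r = 0.62). In the 24 self-administration libraries alone the Dbp and Per3 correlation was 0.76 and in the 35 injected ones 0.41. Dbp in turn had rank 3 in likeness to Bhlhe41 (r = 0.52, 0.56 in self-administration and 0.53 in injected libraries), after Fbrsl1 (r = 0.55) and Lonrf1 (r = 0.53). The same 3 genes were called in conditioning against chronic injection with cocaine. Those libraries are among the 59, so the match is not separate evidence. Per3 had only rank 44 in likeness to Bhlhe41 (r = 0.42).

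Per2 and Per3 were also alike (r = 0.63), Per2 ranking 15 for Per3 and Per3 ranking 17 for Per2, and Per2 ranked 14 in likeness to Hlf (r = 0.60). Nearest to Per2 were Med23, Fam178a and Yeats2 (r of 0.72, 0.69 and 0.69), to Per3 Tmem181b-ps, Yeats2 and Shisa7 (0.70, 0.69 and 0.69), and to Hlf Dtna, Nrp1 and Apaf1 (0.74, 0.70 and 0.68). No other member ranked within 30 for Per1, Cry1, Cry2, Bhlhe40 or Tef. The nearest gene was Kmt2b for Per1 (r = 0.77), Spata7 for Cry1 (0.75), Dcaf5 for Cry2 (0.76), Trip10 for Bhlhe40 (0.75) and Mpped1 for Tef (0.77). The likeness of Cry1 to Spata7 came from self-administration, where r was 0.86, against 0.28 in the injected libraries, while that of Tef to Mpped1 was 0.64 in self-administration and 0.84 in injected libraries.

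**Figure D4:**
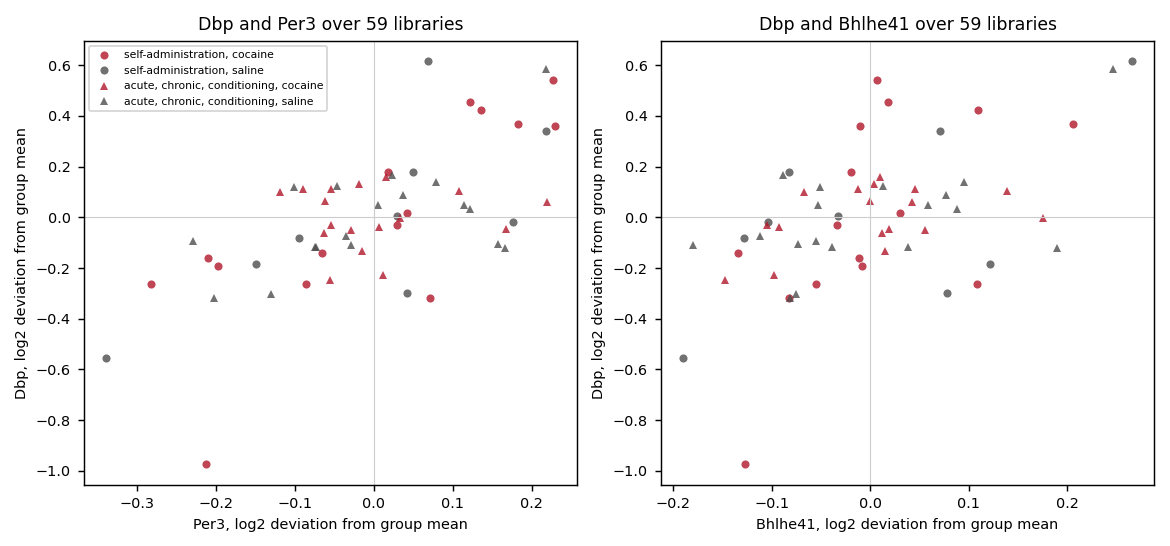
Deviation of each of the 59 libraries from its group mean, log2(FPKM + 1), with Dbp on the vertical axis against Per3 (left) and Bhlhe41 (right) on the horizontal axis; circles are self-administration, triangles the injected paradigms, red cocaine and grey saline. Libraries high in Dbp for their group tend to be high in Per3 (r = 0.64) and in Bhlhe41 (r = 0.52), and the widest spread of Dbp is in self-administration.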

How the data were processed

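RNA from the VTA of mice was made into libraries with a TruSeq RNA kit, per the labels' protocols. The authors deposited 1 table of FPKM values by gene symbol and library; the submitters' processing notes name Bowtie, Cuffnorm and the build mm10. For versions, annotation, strand setting and filters, none is given in the sources used here. FPKM scales by transcript length and library total, so abundant transcripts can shift others. Depth is unknown; no counts could be tested. Columns were mapped to groups by name, and libraries are called by group and column number, counted from 0.

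Values were taken as log2(FPKM + 1), genes under a mean of 1 FPKM across the libraries fitted were dropped, and limma 3.58.1 in R 4.3.3 (lmFit, eBayes with trend and robust, two-sided) was run on the whole table, with Benjamini-Hochberg adjustment and a threshold of 0.05. The cocaine effect in a paradigm was fitted on its own libraries, the average with paradigm as an additive term, and all other contrasts in 1 fit of 8 groups. The method was tested on simulated data. Alternatives were a pseudocount of 0.1, no filter, quantile and median-ratio scaling, plain eBayes, library weights, each library or paradigm left out, and the 6 injected groups only. The members, gene lists and naming rule (all 10 members; other clock genes past the threshold, up to 6, otherwise the first 3 by p; up to 3 of other lists; the 3 most alike genes per member) were chosen with earlier results of these data known. Some genes that the rule names are not reported here. Arntl, which the rule does not cover, was named after its values were seen.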

Additional observations from a re-analysis of the deposited data

Results flagged for a closer look

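Libraries far from the rest of their group were looked for in 70 groups of 4 to 10 values, by the gap of the highest or lowest library over the range of the group (Dixon's 95% value). Chance gives about 1 in 20, and 9 of the 70 had such a library.

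Self-administration saline library 1 was high in Cry2, at 44.6 FPKM with the next library at 32.5, and in Tef, at 107 with the next at 93.4. Self-administration saline library 7 was high in Hlf, at 24.2 FPKM with the next at 20.8. Chronic cocaine library 2 was high in both Per3, at 7.81 FPKM with the next at 6.74, and Cry1, at 9.99 with the next at 8.57. Chronic saline library 1 was high in Dbp, at 77.4 FPKM with the next at 52.5. In conditioning cocaine, library 5 was high in Per3, at 5.56 FPKM with the next at 4.87, and library 3 was low in Cry2, at 21.0 with the next at 23.5. Acute cocaine library 2 was low in Per1, at 10.3 FPKM with the next at 13.2.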

How the results depend on the processing

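No paired analysis was possible because the numbers of the table's columns, counted from 0, do not show which replicate number of the labels they stand for. Under the pseudocount of 0.1, no filter, median-ratio scaling and plain eBayes, all 230 member differences kept their side of the threshold, and no called difference reversed under any setting. Quantile scaling gave 3 further calls, library weights 8 and the 6 injected groups alone 6, with 0 lost.

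Counts of members past adjustment moved under library weights and in the injected groups alone. For conditioning minus acute they were 1 and 1 with cocaine and 1 and 1 with saline, against 0. Of all genes, 29 and 10 were called there with cocaine and 34 and 10 with saline. For conditioning minus chronic with cocaine they were 5 and 6, against 3, where 387 and 207 genes were called. Per3 gained a call in conditioning minus chronic with saline under both settings, and in self-administration minus acute with saline under library weights. With cocaine, Cry2 and Bhlhe40 gained calls in self-administration minus acute under quantile scaling and library weights, and Hlf in self-administration minus chronic under quantile scaling. Counts past the unadjusted limit moved to 2 of 10 for chronic cocaine under quantile scaling (against 1), to 1 for conditioning under quantile scaling and under library weights (against 2), to 1 for acute under library weights (against 0) and to 0 for the average without self-administration (against 8).

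With single libraries left out, counts past the unadjusted limit lay between 5 and 9 for self-administration, 4 and 8 for the average, 1 and 3 for conditioning, 0 and 1 for chronic and 0 and 2 for acute. Counts past adjustment ranged between 1 and 2 for conditioning minus chronic with saline and 1 and 3 with cocaine. Bhlhe41 lost its saline call without chronic saline library 0 (adjusted p = 0.0547) or 1 (0.0798). With cocaine, Bhlhe41 and Per3 both lost their calls without chronic cocaine library 0, 1 or 2 or conditioning cocaine library 2 or 3; Bhlhe41 alone without chronic cocaine library 4; and Per3 alone without chronic cocaine library 3 or conditioning cocaine library 0, 1 or 4. The cause was not tested. The Per1 count in chronic cocaine was 0 without chronic cocaine library 2 or 4 or chronic saline library 3, 4 or 5. Small groups (5 or 6 libraries) and unknown depth limit the precision of the injected contrasts. For the cocaine effect, though, the median SE of the members was 0.064 in acute, 0.063 in chronic and 0.066 in conditioning. In self-administration it was 0.070, so the injected paradigms were not less precise. Between paradigms it was 0.086 to 0.090 among injected groups and 0.072 to 0.078 against self-administration.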
